A study of Mus musculus with 6 samples.

Results

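The collagen genes of the mouse were examined in DNA methylation profiles of the dentate gyrus, the part of the hippocampus that receives its main cortical input and in which neurons are still born in adults. Members were the protein-coding autosomal genes of the GENCODE annotation whose symbol is Col followed by a digit, with 5 or more measured cytosines from 1 kb before the gene start to the gene end. Of 43 genes with such a symbol, 41 met the minimum, out of 14879 of 20807 protein-coding autosomal genes. Among them, 40 encode collagen chains, and Col4a3bp encodes a ceramide transporter whose name only refers to a collagen. Col28a1 with 4 cytosines and Col10a1 with 3 fell short, and Col20a1 with 5 was just inside.

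The libraries came from female C57BL/6JRj mice aged 4.5 months, kept under a 12:12 h light cycle and specific pathogen free conditions. In the STD group, 3 mice lived in standard cages, and in the ENR group, 3 mice lived in an enriched environment, which offers more space, objects and company. No genotype or further treatment was listed for any mouse, and each library held the micro-dissected dentate gyrus of 1 mouse, profiled by reduced representation bisulfite sequencing (RRBS). RRBS cuts genomic DNA at CCGG, keeps short fragments and reads which cytosines stayed unconverted by bisulfite, so it samples CpG-rich sequence. The deposited values were percentages per cytosine without read numbers, so the depth behind each value was unknown. The values averaged over every cell of the tissue, so a change within cells and a change in cell makeup cannot be told apart. No transcript levels were at hand to check the tissue against marker genes.

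Collagens are extracellular proteins built from chains that wind around each other as a triple helix. The helix needs the smallest amino acid, glycine, at regular steps, each followed by a pair of residues that are often proline or hydroxyproline. Fibrillar chains assemble into cable-like fibrils, type IV chains form the sheet of basement membranes around blood vessels, and FACIT chains (fibril-associated collagens with interrupted helices) decorate fibrils. Others form beaded filaments, cross the cell membrane, or release signalling fragments such as endostatin. In the brain, collagens lie mainly in vessel walls and meninges, and a few, such as Col19a1 and Col25a1, are known from neurons. Methylation of CpG-rich promoters generally goes with a silent gene, whereas bodies of active genes are usually methylated.

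The sequences of these genes bear directly on what RRBS could see. Col9a2, a chain of the FACIT type IX collagen, has 19 CCGG cut sites in its coding sequence, and 11 of them stand directly before a glycine codon. Its coding exon 28, at chr4:121053058-121053204 on the plus strand of GRCm38 (the mm10 build), holds 6 of these cut sites, all 6 before a glycine codon. Coding exon 9 of Col4a1, a basement membrane chain, at chr8:11244486-11244569 on the minus strand, holds 2. Coding exon 23 of Col1a1, the main chain of type I fibrils, at chr11:94943343-94943441 on the plus strand, holds 3. The 3 exons are printed from the reference because they show how the helix repeat is written in cut sites, with each CCGG in capitals and the first base opening a codon.
Col9a2 coding exon 28: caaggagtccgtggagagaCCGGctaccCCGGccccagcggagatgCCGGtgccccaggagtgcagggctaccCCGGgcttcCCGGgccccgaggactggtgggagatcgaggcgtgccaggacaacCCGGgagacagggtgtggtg
Col4a1 coding exon 9: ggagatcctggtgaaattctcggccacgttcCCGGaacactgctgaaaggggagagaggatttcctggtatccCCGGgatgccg
Col1a1 coding exon 23: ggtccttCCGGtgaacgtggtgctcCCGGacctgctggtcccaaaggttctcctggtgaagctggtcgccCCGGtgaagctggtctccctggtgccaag
The Col4a1 exon carried 4 measured cytosines at 35.2% ± 9.59 (SD, n = 6 libraries), whereas the exons of Col9a2 and Col1a1 carried none.

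Across the 40 chain genes, coding sequence held 873 cut sites, or 4.73 per kb, against 2.73 per kb over all 20807 genes. Of the collagen cut sites, 44.0% stood directly before a glycine codon, compared with 25.1% in all genes. A proline codon followed by glycine accounted for 28.8% of collagen cut sites and 7.74% of those in all genes. Glycine made up a median of 23.9% of the residues, with a range from 9.07% to 31.2%, against 6.05% over all genes. In Col1a1, 31 of 35 coding cut sites stood before glycine, in Col1a2, the other type I chain, 17 of 20, and in Col4a1 25 of 43. These counts describe the reference sequence and hold no measurement from the mice. Among coding cytosines that were measured, 24.4% lay before a glycine codon in the chain genes and 12.8% in all genes.

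**Figure D1:**
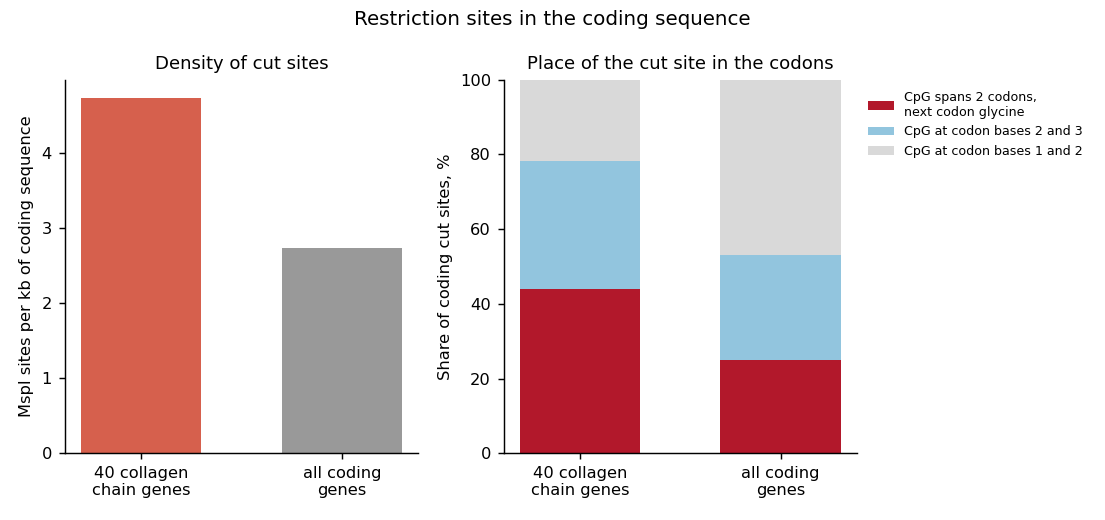
Left, CCGG cut sites (the MspI site) per kb of coding sequence, pooled over the 40 collagen chain genes and over all coding genes. Right, the share (%) of these cut sites by their place in the codons. The density is 4.73 against 2.73 per kb, and the red part, where the next codon is glycine, takes 44.0% against 25.1%.

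Start regions differed in sequence as well as in coverage. In the RefSeq table of promoters (GRCm38; 250 bases before to 50 after the start), 31 of the 41 genes were matched. Their windows held a median of 13 CpGs, against 7 over all 32851 promoters, and ran from 0 in Col3a1 and Col9a1 to 37 in Col4a1. The letters GGGCGG, searched on both strands, occurred in 64.5% of the collagen windows and 35.7% of all windows, and CCAAT in 35.5% and 37.4%. These sets are unlike. The collagen windows were 1 per gene and came from genes that passed the minimum of measured cytosines. All windows were every entry listed, with no such filter. No measured cytosine fell in 16 of the 31 windows. The upstream 250 bases of 2 fibrillar genes are printed to contrast a CpG-free start with a CpG-dense one. Col3a1 (type III collagen, found with type I in vessel walls; chr1:45311288-45311537, plus strand) had no CpG in them. Col5a1 (type V collagen, which nucleates fibrils; chr2:27886175-27886424, plus strand) had 28 CpGs, of which 10 were measured (in capitals). Those 10 cytosines averaged 1.05% ± 1.56 (SD, n = 6).
Col3a1 upstream: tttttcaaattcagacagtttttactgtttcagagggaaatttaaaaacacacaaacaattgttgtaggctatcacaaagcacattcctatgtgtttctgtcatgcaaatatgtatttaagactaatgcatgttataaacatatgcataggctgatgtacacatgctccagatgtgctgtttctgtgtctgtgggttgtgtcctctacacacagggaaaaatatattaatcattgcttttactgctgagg
Col5a1 upstream: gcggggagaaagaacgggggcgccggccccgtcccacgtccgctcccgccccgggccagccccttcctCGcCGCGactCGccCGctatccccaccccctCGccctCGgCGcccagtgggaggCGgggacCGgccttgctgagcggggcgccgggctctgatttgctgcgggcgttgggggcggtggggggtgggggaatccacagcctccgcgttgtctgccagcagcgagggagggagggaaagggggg
The type IV genes are arranged head to head and share their start regions. The Col4a4 and Col4a3 gene models lie 71 bases apart (chr1:82586850-82586920), and those of Col4a1 and Col4a2 overlap by 22 bases. The bases between Col4a4 and Col4a3, shown because both genes start at their edges, held 2 CpGs and no measured cytosine.
Col4a3/Col4a4: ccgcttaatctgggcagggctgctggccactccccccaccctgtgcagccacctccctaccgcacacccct

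In all, 2098 distinct cytosines fell in the 41 genes, and 57 of these counted for a pair of genes, 35 for Col4a1 with Col4a2 and 22 for Col4a3 with Col4a4. A gene held between 5 and 132 cytosines (Col25a1), with a median of 40, the same as over all genes. Promoter cytosines, within 1 kb of any annotated transcript start, numbered 1050, and body cytosines, the rest of the gene, 1105. The body thus held 51.3% of collagen values, against 27.0% over all genes. Averaged over collagen body cytosines, the STD libraries stood at 63.8%, 61.8% and 57.4% and the ENR libraries at 61.8%, 62.6% and 55.0%. Replicate 3 was the lowest library of both groups, which was also the case over the body cytosines of all genes (41.3% in STD, 38.9% in ENR, the others between 44.3% and 45.2%). Over the 993 distinct promoter cytosines of the collagen genes, the STD libraries stood at 11.22%, 11.74% and 11.21% and the ENR libraries at 11.16%, 11.16% and 10.67%. All ENR values lay below all STD values (group means 11.39% and 10.99%), but the nearest values, 11.16% and 11.21%, were close. The exact permutation test gave p = 0.1, the smallest that 3 against 3 allows. Over the promoter cytosines of all genes the groups overlapped (4.51% in STD, 4.43% in ENR). Gene by gene, 17 of the 34 collagen promoters with 3 or more cytosines were lower in ENR (50%), against 52.7% of all genes.

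The first comparison asked how methylation differs between the promoter and the body of each gene. Collagen genes had a median methylation of 38.0% over the whole gene, compared with 8.53% over all genes. Promoter means were low in most members. With 3 or more cytosines in 34 of the 41, the median was 5.71%, and 22 of the 34 (64.7%) lay below 10%, against 1.97% and 84.5% over all genes. Promoter means exceeded 50% in 5 collagen genes (14.7%), compared with 3.98% of all genes. Bodies had a median of 61.8% in the 39 collagen genes with 3 or more body cytosines and 53.3% over all genes. Of the others, 2 genes had no promoter cytosine and 5 had 1 or 2, and Col1a2 and Col4a3bp had no body cytosine.

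**Figure D2:**
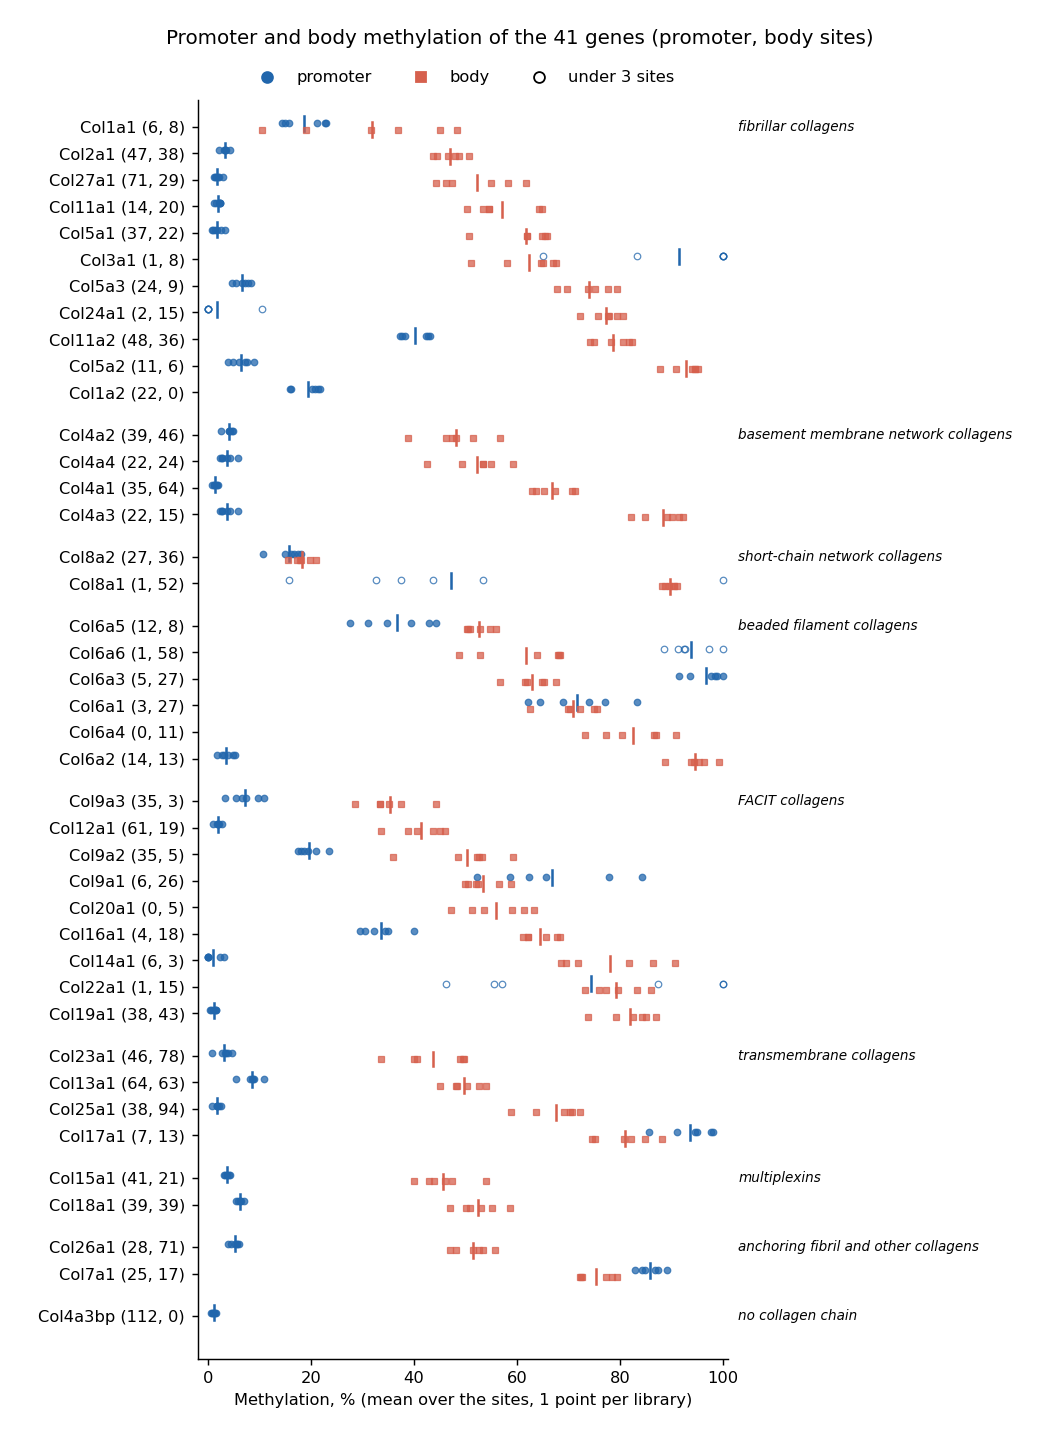
Mean methylation (%) of promoter (blue circles) and body (red squares) cytosines of each of the 41 genes, 1 point per library, with a vertical line at the mean of 6 libraries and the numbers of cytosines in brackets. Open circles mark promoters with under 3 cytosines. Most promoters lie left of their bodies, and Col6a3, Col17a1 and Col7a1 stand out with promoter means of 96.7%, 93.7% and 85.9%.

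Promoter and body were compared within libraries with limma, and a gene was called when the adjusted p was under 0.05 and the average gap over 25 percentage points. Of the 32 collagen genes with both, 24 were called with the promoter lower (75%), against 68.4% of the 7358 genes tested, and 1 with the promoter higher, against 1.35%. The median gap was -42.9 points in collagen genes and -42.8 over all genes. The comparison with all genes depended on the promoter definition. With promoters within 500 bases of a start, 25 of 31 collagen genes were called lower, against 49.4% of 9374 genes, with medians of -38.3 and -24.5 points. With the gene's own start alone, the count was 20 of 24, against 61% of 7809 genes, with medians of -48.8 and -36.5 points. Just inside the limit stood Col9a3 (-28.1 points) and Col9a2 (-30.6), and just outside it Col6a5 (-15.9).

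Fibrillar collagens had low promoters and methylated bodies. Of their 11 genes, the 9 with enough promoter cytosines had a median promoter mean of 6.40%, the 10 with enough body cytosines had a median body mean of 62.0%, and 7 of the 8 with both parts were called lower. Col5a2, the second chain of type V collagen, had the widest gap of the class. Its 11 promoter cytosines averaged 4.81%, 8.88% and 7.60% in the STD libraries and 3.84%, 6.00% and 7.27% in the ENR libraries, and its 6 body cytosines 94.0%, 94.7% and 94.6% against 87.8%, 91.0% and 95.2%. No library overlapped between promoter and body, and the gap was -86.5 points (SE 1.14, limma adjusted p = 2.63e-09). Col1a1 (ENSMUSG00000001506.10, chr11:94936224-94953042) was the class member not called, at -13.3 points (SE 4.83). Its 6 promoter cytosines averaged 18.7% ± 4.07, and its 8 body cytosines spread from 10.4% in ENR replicate 3 to 48.3% in STD replicate 1, so the libraries differed more than promoter and body did. Col1a2 (chr6:4504814-4541544) was measured only near transcript starts, with 22 cytosines at 19.4% ± 2.65. Col3a1 (chr1:45311538-45349706) had 1 promoter cytosine and 8 body cytosines at 62.3% ± 6.47.

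All 4 basement membrane genes were called lower. The 35 cytosines shared by Col4a1 (chr8:11198423-11312826) and Col4a2 (chr8:11312805-11449287), which encode the vascular type IV chains, averaged 1.44% ± 0.425. The Col4a1 body, with 64 cytosines, was at 71.2%, 70.7% and 62.8% in STD and 65.3%, 67.4% and 63.6% in ENR. The Col4a2 body, with 46, was at 56.7%, 47.3% and 51.4% in STD and 48.2%, 46.2% and 38.9% in ENR. The 22 cytosines shared by Col4a3 and Col4a4, which encode chains of the kidney glomerulus, averaged 3.65% ± 1.29. The Col4a3 body lay at 88.4% ± 3.99 and the Col4a4 body at 52.2% ± 5.66, so that one shared start region adjoined bodies of unlike level. Gaps were -84.7 points for Col4a3 (SE 1.65) and -48.5 for Col4a4 (SE 2.49).

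Beaded filament collagens, the type VI chains that anchor cells to the matrix, had unlike promoters. Over the 4 with enough promoter cytosines, promoter means ran from 3.61% to 96.7%. Col6a2 (chr10:76595762-76623630) had the widest gap of all 32 genes. Its 14 promoter cytosines averaged 3.85%, 1.80% and 2.72% in STD and 3.06%, 4.93% and 5.31% in ENR, and its 13 body cytosines 96.3%, 93.9% and 94.5% in STD and 95.3%, 88.7% and 99.2% in ENR. Low promoter and nearly full body methylation was thus seen in every library, a gap of -91.0 points (SE 1.49, limma adjusted p = 6.33e-09). Col6a3 (chr1:90765923-90843971) went the other way. Its 5 promoter cytosines stood at 91.5%, 97.7% and 100% in STD and 98.4%, 98.8% and 93.7% in ENR, all above the body at 63.0% ± 3.82, by 33.7 points (SE 1.81, limma adjusted p = 1.69e-06). With medians over cytosines the gap was 12.1 points and was not called. Col6a1 was alike in both parts, with 3 promoter cytosines at 71.7% ± 7.97 and 27 body cytosines at 70.9% ± 4.76, a gap of 0.739 points (SE 2.78), and its sign turned under other settings.

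Among the FACIT collagens, 6 of the 7 genes with both parts were called lower, with a median promoter mean of 7.26%. Col19a1 (chr1:24261890-24587472), described at synapses, had 38 promoter cytosines at 1.10% ± 0.521 and 43 body cytosines at 82.0% ± 4.76. Col14a1, a fibril-binding chain, had the lowest promoter of all members, with 6 cytosines at 3.09%, 0% and 2.38% in STD and 0% in all 3 ENR libraries. Col9a1, a partner chain of Col9a2 and Col9a3 in type IX collagen, was the class member not called. Its 6 promoter cytosines averaged 65.7%, 77.8% and 52.3% in STD and 62.3%, 58.6% and 84.3% in ENR, which overlapped its body at 53.4% ± 3.58.

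The other classes were small. Of the transmembrane collagens, Col13a1, Col23a1 and Col25a1 were called lower. Col25a1 (chr3:130131501-130599877), the precursor of a peptide found in amyloid plaques, had 38 promoter cytosines at 1.80% ± 0.578 and 94 body cytosines at 67.5% ± 5.12. Col17a1, which holds epithelia to their basement membrane, had 7 promoter cytosines at 93.7% ± 4.66 and 13 body cytosines at 81.0% ± 5.33. Col15a1 and Col18a1, the multiplexins, were both called lower. Col18a1 (chr10:77052178-77166548), the source of endostatin, had a promoter at 6.24% ± 0.493 and a body at 52.5% ± 4.11. Col7a1, the anchoring fibril collagen of skin, had 25 promoter cytosines at 85.9% ± 2.30 and a body at 75.4% ± 3.32, a gap of 10.5 points (SE 1.84) that stayed under the limit. Of the short-chain network collagens, Col8a2, a chain of the corneal Descemet membrane, was low in both parts (15.7% ± 2.65 and 18.3% ± 1.90, gap -2.63, SE 1.04), whereas the body of Col8a1 stood at 89.7% ± 1.07. Col4a3bp was measured only at its promoter, with 112 cytosines at 1.11% ± 0.333, all within 1 kb of the start of another gene as well.

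The high promoter means depended on which transcript starts were counted. In 38 of the 41 genes, the annotation lists more starts than those of basic protein-coding transcripts (GENCODE's set of representative coding models), and some lie deep inside the gene. Counting basic coding starts alone, the median promoter mean was 3.36% over the 28 collagen genes with 3 or more such cytosines and 1.66% over all genes. Of these 28, 24 lay below 10%, and 1, Col9a1, lay above 50%. Col6a3 and Col17a1 had no cytosine within 1 kb of such a start. Col7a1 had 1, at 2.56%, while its other 24 promoter cytosines lay further inside the gene, and Col6a1 had 2, at 68.4% ± 11.2. Col11a2, a fibrillar chain of cartilage, went from 40.2% over 48 cytosines to 10.4% over 29, and Col1a2 from 19.4% over 22 to 9.06% over 14. With these starts, 23 of 27 collagen genes were called, all 23 with the promoter lower, against 67.6% of 7844 genes, so the call of Col6a3 in the opposite direction rests on starts of other transcripts. Starts of other genes overlapped as well. Of the 1050 promoter cytosines, 335 lay within 1 kb of the start of another gene, among them all 37 of Col5a1 and all 41 of Col15a1.

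**Figure D3:**
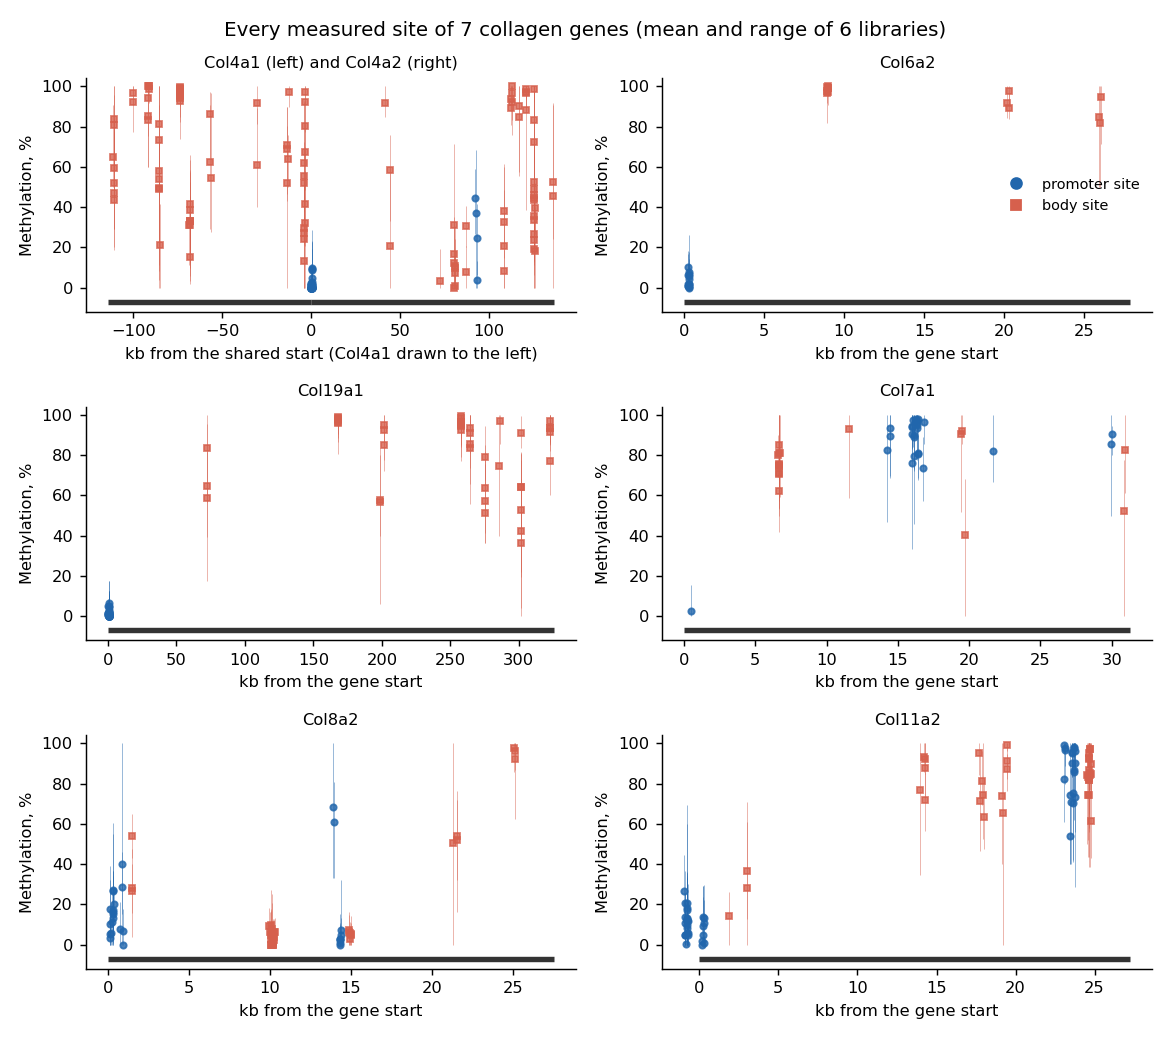
Methylation (%) of every measured cytosine along 7 collagen genes, as the mean of 6 libraries with a thin line from the lowest to the highest library, against the distance in kb from the gene start (blue, promoter; red, body; black bar, gene). In Col6a2 and Col19a1 low cytosines sit only at the gene start, whereas in Col7a1 and Col11a2 promoter cytosines deep inside the gene are as methylated as the body around them.

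By distance from the nearest basic start, methylation was low around the start and higher further inside the gene, with no steady rise from bin to bin. Within 200 bases before the start, collagen cytosines averaged 2.39% ± 0.461 (SD, n = 6 libraries), and from 200 to 500 bases after it 3.67% ± 0.332, against 2.12% and 2.60% over all genes. Between 500 and 1000 bases before the start, the mean was 21.05%, over 41 cytosines of 7 genes, compared with 5.90% over all genes. From 2 to 5 kb inside, collagen genes stood at 38.2% and all genes at 25.6%. The curves met at 10 to 20 kb (46.2% and 46.0%), and from 20 to 50 kb at 71.5% and 48.2%. No test was made of these bins, since cytosines of 1 gene are not independent. Collagen sequence was also less island-like (at least 50% G and C and at least 0.6 of the CpGs that base content predicts, in a short window). This held for 67.2% of promoter and 11.9% of body cytosines in the collagen genes, against 81.2% and 31.3% over all genes.

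**Figure D4:**
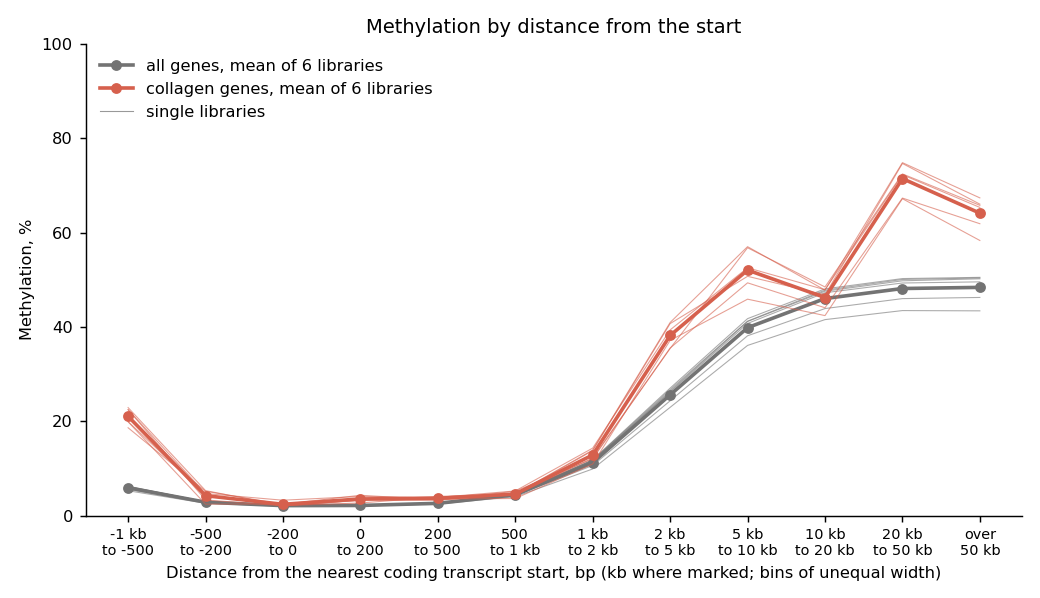
Mean methylation (%) by distance from the nearest basic coding start, in bins of unequal width, for cytosines of the collagen genes (red) and of all genes (grey), with the mean of 6 libraries as a thick line and single libraries as thin lines. Both curves are low around the start, and from 20 to 50 kb the collagen mean lies at 71.5% against 48.2%.

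Within bodies, coding exons were more methylated than introns in most collagen genes. Coding exon cytosines of collagen bodies averaged 78.0% ± 2.45 (302 cytosines) and intron cytosines 54.1% ± 3.84 (738), whereas those of all genes stood at 40.6% and 39.3%. Island-like sequence held 20.2% of the collagen coding cytosines and 53.1% of those of all genes. Gene by gene, coding exons exceeded introns in 18 of the 25 collagen genes with 3 or more cytosines of each kind (72%), against 61.5% of 2105 genes, by a median of 11.01 points compared with 6.91. The order held in all 6 libraries in 14 of the 25 collagen genes (56%, against 45.3% of all genes) and was the opposite in all 6 in Col6a5 and Col9a1 (8%, against 22.3% of all genes). Col8a2 showed the widest difference, with 3 coding cytosines at 95.4% ± 4.63 and 33 intron cytosines at 11.3% ± 1.82. In Col2a1, the main chain of cartilage fibrils, 11 coding cytosines averaged 95.9% ± 2.05 and 17 intron cytosines 41.2% ± 4.09. In Col26a1, 13 coding cytosines averaged 87.9% ± 2.86 and 46 intron cytosines 32.8% ± 3.14. Col6a5 went the other way, with 4 coding cytosines at 29.2% ± 6.70 and 4 intron cytosines at 75.9% ± 2.95. Body cytosines at the glycine codon boundary printed above averaged 73.1% ± 4.72 (80 cytosines of 27 genes), and coding body cytosines elsewhere 79.7% ± 1.88 (221 of 35 genes).

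The second comparison asked whether enriched housing shifted collagen methylation. No collagen gene was called at an adjusted p under 0.05 by limma, over the whole gene (0 of 41), promoter (0 of 34), body (0 of 39) or the gap between promoter and body (0 of 32). Over all genes the share called was 0% in each of the 4 fits. At an unadjusted p under 0.05, 1 of the 41 collagen genes passed over the whole gene (3.61% of all genes), 6 of the 34 over the promoter (4.55%), 0 of the 39 over the body (3.07%) and 0 of the 32 for the gap (3.22%). STD and ENR libraries did not overlap in 3 of 41 collagen genes (8.29% of all genes), 5 of 34 promoters (9.63%) and 1 of 39 bodies (7.13%). The whole-gene count was 0 with the replicate block (769 of 14874 over all genes) and with quantile normalization (670 of 14874). It was also 0 without STD replicate 2 (431 of 14868) and without STD replicate 3 (612 of 14872). With medians over cytosines it was 4 of 37 (247 of 5413). The count of 6 promoters was 2 without STD replicate 3 (611 of 13852 over all genes) and 2 without ENR replicate 3 (733 of 13850). It was 3 without ENR replicate 2 (706 of 13851), 2 with quantile normalization (568 of 13857) and 0 of 16 with medians (110 of 2782). It was 7 with the replicate block (662 of 13857 over all genes) and 7 without ENR replicate 1 (749 of 13854). At the gene's own start it was 7 of 26 (4.55% of all genes), and with basic starts 7 of 28 (4.58%). With basic starts, the groups did not overlap in 7 of 28 promoters (9.74% of all genes). Col4a3 and Col4a4 are among both the 5 and the 7 with the same cytosines, so each count holds that start region for both genes. The median gene difference, ENR minus STD, was -0.70 points in the collagen genes and -0.18 over all genes. Leaving out any 1 of the 6 libraries moved the collagen median by over 1.5 times, from -1.77 without ENR replicate 2 to 0.258 without ENR replicate 3. The body median of -0.54 points ran from -2.36 to 1.24 without the same libraries. Quantile normalization moved the median over all genes to 0.145 and that of the collagen genes to -0.30. Simulated data lowered the ENR values only of features with a mean between 10 and 90, with noise drawn separately for each library. Shifts of 20 points were recovered in 77.5% of such genes, 53% of promoters, 27% of bodies and 19% of gaps. Shifts of 10 points were recovered in 33.5% of genes, 23% of promoters, 0% of bodies and 0% of gaps. In that range the body fit could thus show only large shifts. Most promoters lay below 10% (84.5% of all genes, 22 of 34 collagen genes), so the promoter rates do not cover them. The shifted gaps were those of genes with the promoter over 10 points above the body. In 93.1% of all genes tested the promoter lay below the body, so the gap rates do not describe most genes.

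The whole-gene value nearest the threshold was that of Col9a3 (ENSMUSG00000027570.15, chr2:180597790-180622189), whose 38 cytosines averaged 9.15%, 11.7% and 12.9% in STD and 8.79%, 8.46% and 5.78% in ENR. All ENR libraries lay below all STD libraries, by 3.61 points between the group means (11.3% and 7.67%; SE 1.30, limma adjusted p = 1.00). The exact permutation test gave p = 0.1, the smallest that 3 against 3 allows. Its 35 promoter cytosines carried the difference (9.36% ± 1.71 in STD, 5.16% ± 1.65 in ENR, limma adjusted p = 0.990), while its 3 body cytosines were higher in ENR by 3.24 points (SE 4.50). Its partner chain Col9a2 (chr4:121039385-121055322) stood at 22.7%, 21.5% and 22.5% in STD and 27.2%, 22.8% and 24.5% in ENR. Those groups did not overlap either, at 2.60 points higher in ENR (SE 1.51, limma adjusted p = 1.00). ENR replicate 1 was the highest library, and the difference was smaller without it. Whether the partner chains differed from each other in their response was not tested.

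Next to Col9a3, the smallest p among genes lower in ENR belonged to Col1a2 and Col4a2. Col1a2 averaged 21.8%, 20.3% and 21.4% in STD and 16.1%, 15.99% and 20.9% in ENR, a difference of -3.50 points (SE 1.62, limma adjusted p = 1.00). ENR replicate 3 lay within the STD range. Col4a2 averaged 32.6%, 27.6% and 29.0% in STD and 28.3%, 27.2% and 22.9% in ENR (-3.57 points, SE 2.12, limma adjusted p = 1.00), with overlapping groups, and the difference lay in its body (-7.35 points, SE 4.58). The whole-gene difference of Col4a2 was smaller without ENR replicate 3 (22.9%) and without STD replicate 1 (32.6%). Between same-numbered mice, Col1a2 was lower in ENR in 3 of 3 pairs (-5.70, -4.31 and -0.50 points), as was Col4a2 (-4.27, -0.35 and -6.09). Lower values in all 3 pairs were seen in 8 of 41 collagen genes, against 16.3% of all genes, and with the replicate block the limma adjusted p was 0.952 for Col1a2 and 0.958 for Col4a2. None of the 4 type IV genes was called, with whole-gene differences from -3.57 to -1.79 points. The smallest p among the other genes with a higher mean in ENR belonged to Col17a1 (4.13 points, SE 3.53) and Col8a2 (1.21 points, SE 1.62), both with overlapping groups. The Col17a1 difference was smaller without STD replicate 2 (78.5%) and larger without STD replicate 1 (89.5%). The Col8a2 difference was -0.30 without STD replicate 3 and -0.13 with medians.

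At promoters, Col19a1 had 1.47%, 1.62% and 1.53% in STD and 0.995%, 0.583% and 0.403% in ENR. The groups were apart, but by only 0.88 points on a promoter that was nearly unmethylated in both (limma adjusted p = 0.990). The shared promoter of Col4a3 and Col4a4 had 3.79%, 4.34% and 5.82% in STD and 2.82%, 2.72% and 2.38% in ENR, lower by 2.01 points (SE 0.683, limma adjusted p = 0.990). It counts as 2 of the 6 promoters although the cytosines are the same, and Col14a1, lower by 1.82 points, is among the others. Col5a1 was the promoter that was higher in ENR, with 1.4%, 0.779% and 1.04% in STD and 1.74%, 2.52% and 3.36% in ENR (1.47 points, SE 0.528, limma adjusted p = 0.990). In the body, Col5a1 (chr2:27886425-28039514) had 65.9%, 65.5% and 64.8% in STD and 61.9%, 61.9% and 50.7% in ENR. These groups did not overlap, but ENR replicate 3 lay far below the other ENR libraries, and the difference of -7.20 points (SE 4.39) was not called. By smallest p, though not by size, Col6a2 was second among collagen promoters with a higher mean in ENR (1.64 points, SE 0.847, limma adjusted p = 0.990), with overlapping groups. The largest body difference upward was that of Col17a1, at 78.2% ± 5.75 in STD and 83.7% ± 3.86 in ENR (5.54 points, SE 3.89).

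**Figure D5:**
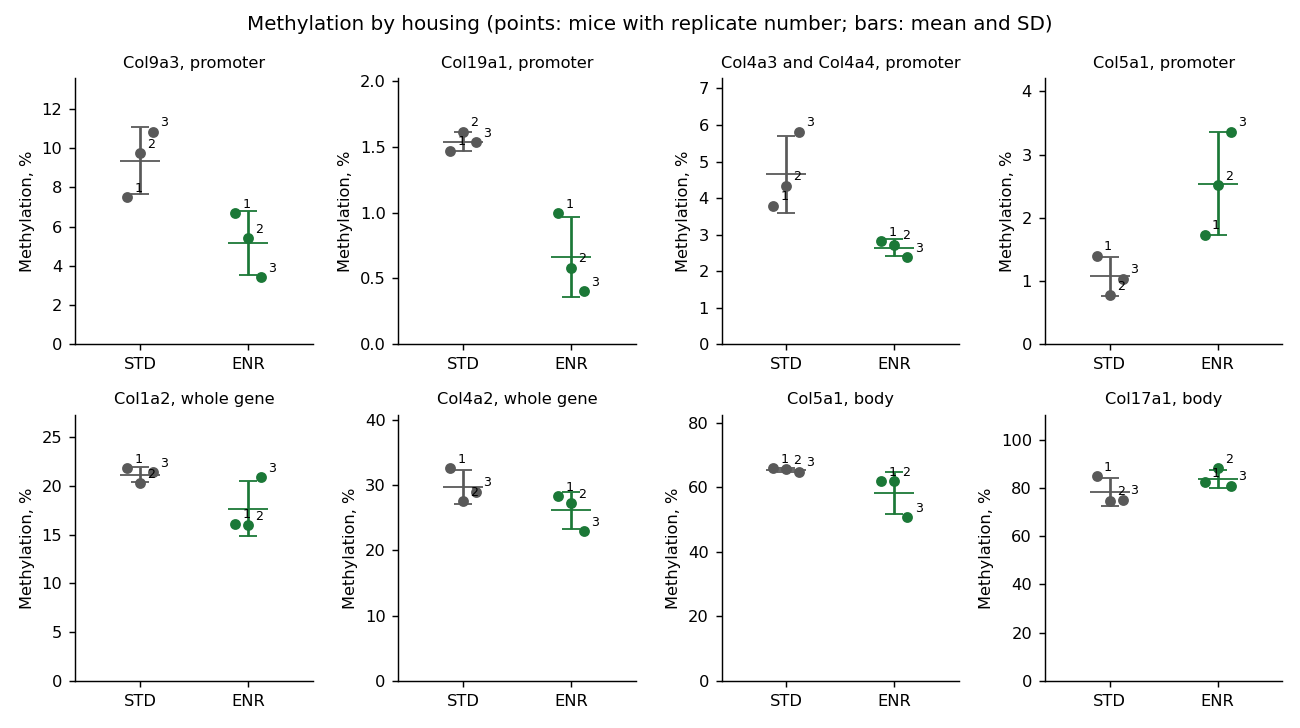
Methylation (%) of selected collagen promoters, whole genes and bodies with small p in the housing comparison. Each mouse is 1 point with its replicate number, in STD (grey) and ENR (green) cages (n = 3 each). Bars give mean and SD, and each panel has an axis from 0 of its own. The whole-gene values of Col9a3 and Col9a2 and the Col4a2 body are not drawn, though their p was smaller than that of some panels. In the Col9a3 promoter all ENR points lie below the STD points (5.16% against 9.36%), and in Col1a2, Col4a2 and the Col17a1 body the groups overlap.

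Single cytosines were compared last. None of 1722 collagen cytosines that varied between libraries was called by limma, nor any of 615152 over the genome (0%), and 57 had an unadjusted p under 0.05, against 2.68% of all. By size alone, 72 of the 2098 collagen cytosines (3.43%) had group means more than 25 points apart, compared with 1.94% of all cytosines. Without ENR replicate 2 the count was 111, against 3.08% of all cytosines. With groups of equal size, such a gap is possible only where the mean lies between 12.5% and 87.5%. Among cytosines in that range, the shares were 10.1% of 713 in collagen genes and 9.01% over all cytosines. Of the 72, 46 (63.9%) were lower in ENR, against 63.6% of all cytosines past that size (1.23% of all cytosines measured). The lower share ran from 40.4% without ENR replicate 3 to 81.0% without STD replicate 3. Over all cytosines past that size it ran from 39.3% to 75.2% without the same libraries. Bodies held 90.3% of the 72. Col4a1 had the most, with 10, of which 8 were lower in ENR, followed by Col23a1, Col25a1 and Col6a6 with 7 each.

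The 3 cytosines with the smallest p in each direction, at most 1 a gene and with groups that did not overlap, are printed with 31 bases of reference sequence in the direction of the gene, the measured CpG in capitals. They show that such cytosines lay both inside CpG-dense sequence and in sparse sequence.
Col9a3 site: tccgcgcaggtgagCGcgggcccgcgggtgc
Col6a4 site: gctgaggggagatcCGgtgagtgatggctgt
Col5a1 site: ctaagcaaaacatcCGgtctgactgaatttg
Col25a1 site: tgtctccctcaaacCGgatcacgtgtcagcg
Col17a1 site: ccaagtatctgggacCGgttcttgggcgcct
Col7a1 site: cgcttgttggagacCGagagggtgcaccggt
The Col9a3 cytosine (chr2:180598332, near the start) was at 24.4%, 21.2% and 38.1% in STD and 0% in all 3 ENR libraries, while 25 cytosines within 100 bases differed by -3.40 points on average, 12 of them in the same direction. The Col6a4 cytosine (chr9:106041092, coding exon) was at 94.8%, 100% and 83.3% in STD and 63.6%, 41.4% and 0% in ENR, and its 1 neighbour differed by -6.16 points. The Col5a1 cytosine (chr2:27931396, intron) was at 34.1%, 18.4% and 34.4% in STD and 0%, 0% and 3.85% in ENR, and its 1 neighbour differed by -16.0 points. Higher in ENR was the Col25a1 cytosine (chr3:130579788, intron), at 71.0%, 64.7% and 61.8% in STD and 93.2%, 100% and 91.7% in ENR. Its 18 neighbours within 100 bases were higher by 1.72 points on average, 11 of them in the same direction. The Col17a1 cytosine (chr19:47647191, non-coding part of an exon) averaged 67.9% ± 15.8 in STD and 100% in ENR, whereas its 3 neighbours within 100 bases differed by -2.23 points on average, with 1 in the same direction. The Col7a1 cytosine (chr9:108960276, coding exon) averaged 58.2% ± 14.8 in STD and 91.7% ± 7.43 in ENR, and its 10 neighbours differed by 1.67 points on average, 6 of them in the same direction. All 6 had a limma adjusted p of 0.852, and the genes were picked for these differences.

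Genes that make, cross-link, bind and degrade collagen showed the same absence of calls. Of the enzymes and chaperones of chain modification and folding, 16 of 17 were tested over the whole gene and 0 were called, and 7 of 10 had a promoter called lower than the body. Of the proteases, protease enhancers (Pcolce and Pcolce2) and lysyl oxidases that process and cross-link the chains, 12 of 13 were tested and 0 called. Loxl1, a lysyl oxidase, had the smallest p among them (17.9% in STD and 21.99% in ENR, 4.11 points, limma adjusted p = 1.00), and 5 of 7 promoters were called lower. All 9 collagen receptors were tested with 0 called. The Itga11 promoter (an integrin chain that binds type I collagen) was at 5.14% in STD and 7.45% in ENR (limma adjusted p = 0.990). Of the 4 receptors with both parts, 2 promoters were called lower, and that of Itga10 was called higher than its body by 26.3 points. Among the proteases that degrade collagen and their inhibitors Timp2 and Timp3, 6 of 8 were tested and 0 called. Of 4 promoters, that of the inhibitor Timp2 was called lower than its body (-53.3 points), and those of the proteases Mmp2 (-7.93), Mmp14 (-6.09) and Mmp9 (-1.01) were not called. Of all genes tested, 68.4% had a promoter called lower.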

How the data were processed

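RRBS libraries of 6 dentate gyri (3 STD, 3 ENR) were analysed. The authors trimmed reads with Trim Galore 0.4.0 and cutadapt 1.8.1, mapped them to mm10 with Bismark 0.16.1 and extracted methylation with methylKit 1.5.2, per the submitters' processing notes, and kept cytosines above a minimum read depth. The deposited values were percent methylation per cytosine for 890041 sites (889917 at reference CpGs) with 0 missing values and without read numbers. Depth per library was therefore unknown, no counting interval could be given, and a test on reads was not possible. The number of per-library columns left unused was 0.

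Cytosines were assigned to autosomal protein-coding GENCODE genes (1 kb before the start to the end), to promoters (within 1 kb of any transcript start) and to bodies. At least 5 cytosines per gene, 3 per promoter and 3 per body were required. Means per library were compared on the percentage scale with limma 3.58.1 in R 4.3.3 (lmFit, eBayes with a variance trend), fitted over all genes or sites with Benjamini-Hochberg adjustment. Exact permutation tests were two-sided. SDs are over libraries. Scripts ran in Python 3.11.15 with pandas 2.3.3, numpy 2.4.6 and scipy 1.17.1, and the fits were tested on simulated data.

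Each mouse counted as 1 replicate. Replicate numbers in the labels were checked for pairing by the correlation of deviations from group means over 14879 genes. It was 0.173, 0.133 and 0.366 for same-numbered mice. STD replicate 1 with ENR replicate 2 gave 0.174, and STD replicate 2 with ENR replicate 1 gave 0.108. Every same-numbered pair exceeded the set limit of 0.1, but so did these unlike pairs, so the rule could not establish pairing. The labels do not say what a number marks. The main fits left the numbers out, and the replicate block was run as an alternative. Alternatives covered the scale, variance trend, quantile normalization, minimum cytosines, strand averaging, medians, promoter definitions, island-like sequence, size limits, the replicate block and leaving out each replicate. Counting basic protein-coding starts alone was added after seeing the data.

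Named with full values were the 5 highest and 3 lowest promoters, the 3 widest and 3 narrowest gaps, the smallest p-values in each direction (3 genes, 2 promoters, 2 bodies, 3 sites) and Col1a1, Col1a2, Col3a1, Col4a1, Col4a2, Col18a1, Col19a1 and Col25a1. Other genes named, such as Col11a2, Col2a1, Col26a1, Col6a5, Loxl1, Itga10, Itga11, Timp2, Mmp2, Mmp9 and Mmp14, were chosen after their values were seen. The genes and lists were chosen with earlier results of these data known.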

Additional observations from a re-analysis of the deposited data

How the results depend on the processing

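The absence of housing calls among collagen genes, promoters, bodies, gaps and sites held under every alternative run. With the replicate block the counts of collagen calls stayed the same (0 for housing, 25 for promoter against body). On the arcsine scale, without a variance trend and without ENR replicate 3, 1 promoter outside the collagen genes was called. Counts of promoter against body calls were 17 of 26 outside island-like sequence (3445 of 5279 over all genes), 19 of 32 at a limit of 40 points (3943 of 7358) and 30 of 32 at 10 points (6243 of 7358). The count of 72 collagen sites over 25 points, which is a count by size and has no test, became 133 at a limit of 20 points (6.34%, against 3.74% of all sites), 8 at 40 (0.381% against 0.244%), 113 by medians of each group (5.39% against 3.07%), and 30 when overlap between groups was barred (1.43% against 0.810%). Leaving out one replicate gave 79 to 111 (2.60% to 3.42% of all sites). The Col6a1 gap of 0.739 points turned to -1.07 with strands averaged and -11.8 with medians, and ran from -1.84 to 3.05 without single replicates. The Col8a2 gap turned to 5.12 with medians and 5.38 within 500 bases of a start. Over the 41 genes, whole-gene differences below 0 numbered 24 (58.5%, against 58.3% of all genes), and 20 to 34 without single replicates (44.2% to 64.4% of all genes). Among the genes with the smallest whole-gene p and those named in any case, the differences that changed sign were those of Col8a2 (-0.13 with medians, -0.30 to 2.48 without single replicates), Col1a1 (-7.67 to 3.92), Col18a1 (0.328 with quantile normalization, -1.84 to 0.905), Col19a1 (-1.34 to 1.61) and Col25a1 (-3.21 to 1.65), and so did the Col9a3 body difference (-0.39 to 5.13). With medians the Col6a3 gap fell to 12.1 points and outside island-like sequence that of Col4a2 to -20.5, both below the limit, while within 500 bases that of Col1a1 passed it at -28.1. The cause was not tested. Read depth was unknown. In simulated data at this group size, sites with a mean between 10% and 90% were lowered, and values could fall below 0%. Of these sites, 0% were called at a shift of 40 points and 6.5% at a shift of 90.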
